A study of Mus musculus with 3 samples.

Results

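The 10 genes described here encode parts of the cardiac sarcomere, the repeating contractile unit of heart muscle, and were followed through single cells of 3 mouse cultures. They are the troponin subunits Tnnt2, Tnni1 and Tnni3, the myosin heavy chains Myh6 and Myh7, the myosin light chains Myl4 and Myl7, the cardiac actin Actc1, the Z disc protein Actn2 and the giant spring protein Ttn. They were chosen by name, and are 10 of 27886 genes that at least 1 table listed. CPCC and CB listed all 10, and mESC listed 9, all but Actc1. All cells came from male F1 stem cell clones with a C57BL/6 mother and a CAST/EiJ father, derived from several blastocysts. The mESC sample held 215 embryonic stem cells kept in 2i and LIF. The CPCC sample held 175 cells of cardiac precursor cultures, obtained by dissociating embryoid bodies, formed with ascorbic acid, and passaging the cells in a medium with EGF and Fgf2. The CB sample held 232 cells of cardiac bodies, which were picked under the microscope because they beat, after longer culture with ascorbic acid, and which did not come from the CPCC. Each culture was 1 sample, so no difference between them has a replicate check and no test was made. Cells are not replicates of a culture, and the intervals given with shares and counts cover counting error only.

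In the sarcomere, myosin heavy chains with their light chains form the thick filament and pull on thin filaments of actin. The troponin complex on the thin filament makes the pull depend on calcium, α-actinin (Actn2) anchors thin filaments in the Z disc, and titin (Ttn) ties the Z disc to the thick filament. The heart uses isoforms by stage and chamber. Tnni1, the slow skeletal troponin I, precedes the adult cardiac form Tnni3 in the embryonic heart. In the mouse Myh7 is the main ventricular heavy chain before birth and Myh6 after it, and the light chains Myl4 and Myl7 are early cardiac and later atrial forms.

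The members lie on 6 chromosomes (GRCm38). Tnni1 (chr1:135779434-135810989) and Tnnt2 (chr1:135836354-135852260) are near neighbours on the plus strand, and Ttn (chr2:76703980-76982547) and Actc1 (chr2:114047282-114053548) lie far apart on the minus strand. Myh6 (chr14:54941921-54966927) and Myh7 (chr14:54970684-54994626) stand 3757 bases apart in tandem. They encode near-identical proteins, so reads of one may have been assigned to the other, and their split is uncertain. Myl4 (chr11:104550663-104595753), Myl7 (chr11:5896637-5898782), Tnni3 (chr7:4518305-4524229) and Actn2 (chr13:12269426-12340760) complete the set. The use of strand in counting was not stated, which matters for Ttn, Myh7, Tnni3, Myl4, Myh6 and Actc1, whose spans overlap other annotated genes.

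The promoter windows of RefSeq (GRCm38.p6, 250 bases before to 50 after each start) matched all 10 members with 13 windows. They were searched on both strands for the CArG box, which serum response factor binds, the MEF2 box, and the motifs TATAAA and GATAA. Actc1 and Myl7 held a CArG box, against 1.63% of all 32851 windows, and Ttn held a MEF2 box, against 3.19%. The TATAAA motif was in windows of Actc1 and Myh6 (13.6% of all windows) and GATAA in those of Myl7, Tnni3 and Tnnt2 (25.4%). The patterns of both boxes read alike on either strand and a match was counted once, and no matches of different motifs overlapped in these windows. The 250 bases before the listed start are shown for the 3 genes with a CArG or MEF2 box, a choice made after values were seen. Capitals mark the CArG box in Actc1 and Myl7 and the MEF2 box in Ttn.
Actc1, chr2:114052876-114053125, minus strand: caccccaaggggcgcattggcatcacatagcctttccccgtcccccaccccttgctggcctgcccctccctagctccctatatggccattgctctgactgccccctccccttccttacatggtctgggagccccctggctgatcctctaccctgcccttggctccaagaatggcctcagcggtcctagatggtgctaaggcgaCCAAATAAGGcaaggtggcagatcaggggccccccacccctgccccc
Myl7, chr11:5898783-5899032, minus strand: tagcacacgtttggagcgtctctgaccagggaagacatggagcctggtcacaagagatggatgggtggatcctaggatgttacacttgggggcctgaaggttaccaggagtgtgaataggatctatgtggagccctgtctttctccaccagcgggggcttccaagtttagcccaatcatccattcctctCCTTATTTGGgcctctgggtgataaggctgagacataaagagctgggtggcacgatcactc
Ttn, chr2:76982548-76982797, minus strand: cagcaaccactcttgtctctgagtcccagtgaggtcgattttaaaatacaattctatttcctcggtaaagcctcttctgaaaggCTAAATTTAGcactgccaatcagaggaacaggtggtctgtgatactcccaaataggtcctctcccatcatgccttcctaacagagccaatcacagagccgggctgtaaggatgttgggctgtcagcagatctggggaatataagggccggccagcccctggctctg

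The CArG box began 47 bases before the listed start of Actc1 and 61 bases before that of Myl7, and the MEF2 box 166 bases before that of Ttn. A match is a string of letters in a window, and no factor binding was measured.

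The depth was similar in the cultures. The median was 1528316 counts per cell in mESC, 1437414 in CPCC and 1397869 in CB, and 8, 1 and 9 cells had under 10000 counts. The median number of genes detected per cell was lower in CB (6661) than in mESC (9532) and CPCC (9252). Its part in the shares of cells with a member was not tested. The names of the cell columns divide them into 3 mESC, 2 CPCC and 3 CB pools, whose median counts ranged from 804581 to 1855334. Libraries of a chip had been pooled before sequencing on a lane per final pool, but no source used here states that the column names follow these pools. The mESC label reads triplicate, and nothing ties a pool to a clone or a repeat culture, so pools are given as values and not as replicates.

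Summed over the cells of a culture, most members were highest in CB, but the order differed by gene. Levels are CPM, the counts of a gene scaled to the same total of all gene counts, and log2 ratios are of CPM + 1, which understates the change of low genes. Against mESC, 7 of the 9 members listed in both were higher in CB by 1 or more on the log2 scale, where 30.8% of all genes tested were, and 1 was lower, where 14% were. The median log2 ratio was 3.42 for the members and 0.29 for all genes. Against CPCC, 8 of 10 members were higher in CB (21.3% of all genes) and 1 was lower (9.44%), with medians of 2.82 and 0.22. The comparisons share samples. Between CPCC and mESC, 7 of the 9 members passed the limit of 1 CPM in either culture, and Myh6 and Myh7 did not. Of the 7, 2 were higher in CPCC (17.5% of all genes), 3 were lower (8.36%) and 2 lay between. Their median was -0.19, against -0.01 for all genes, and turned to 0.17 over all 9. These counts rested on few cells. Without the 8 CB and 4 mESC cells with 5 or more members at 10 or more counts, described below, 8 members passed that limit in each comparison. Of them 2 (Tnnt2 and Tnni1) were higher in CB than in mESC (30.9% of all genes) and 2 were lower (14.2%), and against CPCC 0 were higher (21.3%) and 3 lower (9.77%). Without CB pool 2, which held 7 of the 8, 3 of 9 members were higher than in mESC (31.5% of all genes) and 2 lower (19.6%), and 1 of 10 was higher than in CPCC (22.7%) and 3 lower (15.1%). In both settings the number of members higher in CB was near or under the share of all genes. The cells left out were picked by counts of the members, and pool 2 held most of them, so a fall was built in. Other genes were not cut by their own high cells. Without the highest cell of each culture, 6 of 9 members were higher than in mESC (30.8% of all genes) and 1 lower (14%). Against CPCC 6 of 10 were then higher (21.4%) and 1 lower (9.57%). Scaling by TMM lowered the median of all genes from 0.29 to 0.13 against mESC and from 0.22 to 0.05 against CPCC. Then 7 of 9 members were higher in CB than in mESC (27.6% of all genes) and 1 lower (17%). Against CPCC 7 of 10 were higher (17.9%) and 1 lower (12.3%). Fewer cells with a gene and fewer counts per cell cannot be told apart in a summed level, so the shares of cells follow each level.

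Of the troponins, Tnnt2, the subunit that binds tropomyosin, had 2.21 CPM in mESC, against 84.9 CPM in CPCC (interval 83.8 to 86.0 CPM) and 40.4 CPM in CB (39.7 to 41.1 CPM). CB stood below CPCC by 1.05 on the log2 scale, a difference that among the other members had the same sign for Actn2 alone (-0.16). The 2 CPCC pools lay far apart, at 1.11 and 163 CPM, and the CB pools between them at 24.1, 78.6 and 12.4 CPM, so the order of CB and CPCC depended on the pool. Tnnt2 was detected, at 1 or more counts, in 11.2% of mESC cells (interval 7.28 to 16.2%), 21.7% of CPCC cells (15.8 to 28.6%) and 14.7% of CB cells (10.4 to 19.9%). The interval of CB overlapped both others, and those of mESC and CPCC just met. At 100 or more counts there was 1 mESC cell, against 12 CPCC and 18 CB cells.

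Tnni1, the embryonic troponin I, had 7.73 CPM in mESC, against 28.0 CPM in CPCC (27.3 to 28.6 CPM) and 61.0 CPM in CB (60.1 to 61.8 CPM). Its log2 ratio of CB to CPCC, 1.10, was 0.92 under TMM and -0.79 without CB pool 2, so its direction rested on that pool. The CB pools had 39.0, 132 and 5.64 CPM and the CPCC pools 2.48 and 51.8 CPM, and they overlapped. It was found in more mESC cells (36.3%, interval 29.8 to 43.1%) than CPCC cells (16.0%, 10.9 to 22.3%) or CB cells (16.4%, 11.9 to 21.8%). Here the culture with the lowest summed level had the largest share of cells with the transcript. Tnni3, the adult cardiac form, stayed low, with 2.18 CPM in mESC, only 0.268 CPM in CPCC, and 4.96 CPM in CB. Its CB pools had 14.2, 5.35 and 0.619 CPM, so that pool 1 led here. The share of cells with Tnni3 was again largest in mESC at 24.7% (19.0 to 31.0%), against 8.57% in CPCC (4.88 to 13.7%) and 6.03% in CB (3.34 to 9.92%). After every cell was thinned to 430000 counts, the Tnni1 shares were 37.8%, 14.6% and 13.8% and the Tnni3 shares 22.8%, 7.01% and 6.19%, so mESC kept the largest share of both at equal depth, while CPCC and CB lay close together.

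The myosin heavy chains were the lowest listed members in mESC. Myh6, the α chain, had 0.0345 CPM in mESC, against 0.558 CPM in CPCC and 10.2 CPM in CB (9.85 to 10.53 CPM). Myh7, the β chain, had 0.105, 0.975 and 21.1 CPM. The CB pools had 6.74, 22.9 and 0 CPM of Myh6 and 1.47, 51.6 and 1.52 CPM of Myh7. In mESC, 1.40% of cells held a count of Myh6 (0.289 to 4.02%) and 0.930% one of Myh7 (0.113 to 3.32%). No empty chambers were used here, so a background level was not measured. In CB the shares were 6.03% (3.34 to 9.92%) and 8.19% (5.003 to 12.5%), and in CPCC 10.3% (6.21 to 15.8%) and 8% (4.44 to 13.1%), so CB and CPCC overlapped in the share of cells while their summed levels differed. At 10 or more counts, 6 CB cells held Myh6 and 11 held Myh7, and all 6 of the first were among the 11. In CPCC 5 cells held Myh6 and 2 held Myh7 at that level, and no cell held both. The CB values are estimated counts and the CPCC values whole counts. The part of this in the overlap of these near-identical genes was not tested.

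The light chains were also highest in CB. Myl4, the essential light chain, had 1.73 CPM in mESC, against 2.07 CPM in CPCC and 28.2 CPM in CB (27.6 to 28.8 CPM), and Myl7, the regulatory light chain, had 3.38, 2.83 and 64.9 CPM. Myl7 had the largest log2 ratio of the members in CB against CPCC, 4.10. The share of cells with the gene was smallest in CB for both. Myl4 was detected in 19.5% of mESC cells (14.5 to 25.5%), 18.3% of CPCC cells (12.9 to 24.8%) and 11.6% of CB cells (7.81 to 16.5%), with overlapping intervals. Myl7 was detected in 36.7% of mESC cells (30.3 to 43.6%), 13.1% of CPCC cells (8.52 to 19.0%) and 8.62% of CB cells (5.35 to 13.0%). The median count among the cells that held Myl7 was 8 in mESC, 9 in CPCC, but 34 in CB. Pools again differed. Myl7 had 13.8, 159 and 0.633 CPM in the CB pools, and Myl4 had 7.75, 68.1 and 0.521 CPM.

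Actc1, the main actin of heart muscle, was the member with the highest level in CB, at 216 CPM (interval 215 to 218 CPM), against 23.7 CPM in CPCC (23.1 to 24.3 CPM). It was not listed in mESC and has no value there. The CB pools held 133, 490 and 1.28 CPM and the CPCC pools 43.4 and 5.28 CPM, so the lowest CB pool stood below both CPCC pools. Actc1 was detected in 9.14% of CPCC cells (5.32 to 14.4%) and 15.1% of CB cells (10.7 to 20.4%), and at 100 or more counts there were 7 CPCC cells and 14 CB cells. Actc1 is close in sequence to the other muscle actins, so a part of its counts could come from reads of Acta2 or Acta1. Of the 54 CPCC cells in which Acta2, the smooth muscle actin, reached 1000 CPM, 44 had no count of Actc1, and the same held for 24 of 37 such CB cells. All 7 CPCC cells with 100 or more counts of Actc1 were among the 54, however, and held 2008 to 44570 CPM of Acta2, and 6 of the 14 such CB cells were among the 37. The CB cell with 18389 CPM of Actc1 held 8221 CPM of Acta2 and 336 CPM of Acta1, and one with 2003 CPM of Actc1 held 10302 CPM of Acta2 and 6009 CPM of Acta1. The CB cell with 3169 CPM of Actc1 held 1.72 CPM of Acta2 and none of Acta1.

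Ttn and Actn2 had the highest CPM of the listed members in mESC, though not per length. Ttn had 39.1 CPM in mESC, against 17.4 CPM in CPCC and 128 CPM in CB (126 to 129 CPM), and Actn2 had 14.3, 3.47 and 3.02 CPM. Actn2 was the member that stood lower in CB than in mESC, by 1.93 on the log2 scale. Ttn was detected in 73.0% of mESC cells (66.6 to 78.8%), 31.4% of CPCC cells (24.6 to 38.9%) and 11.6% of CB cells (7.81 to 16.5%), and Actn2 in 42.3% (35.6 to 49.2%), 19.4% (13.8 to 26.1%) and 5.17% (2.701 to 8.86%). The mESC pools ranged from 23.9 to 61.8 CPM of Ttn, the CPCC pools had 35.5 and 0.470 CPM, and the CB pools had 26.7, 314 and 0 CPM, so pools of CB stood on both sides of mESC. Without CB pool 2, Ttn was lower in CB than in mESC by more than 1 on the log2 scale. The share of cells with these genes was thus smallest in the culture that beat, and the median count of a CB cell with Ttn was 6, against 40 in mESC and 56 in CPCC. Ttn has a coding length of 105.639 kb and Actn2 one of 2.682 kb, and full-length cDNA yields more fragments from longer transcripts. Per kb of coding length, mESC had 13.8 CPM of Tnni1 and 6.43 CPM of Myl7, above Actn2 with 5.34 CPM. Ttn had 0.370 CPM per kb in mESC and 1.21 CPM per kb in CB, below Actc1 with 191 and Myl7 with 124 CPM per kb in CB.

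**Figure D1:**
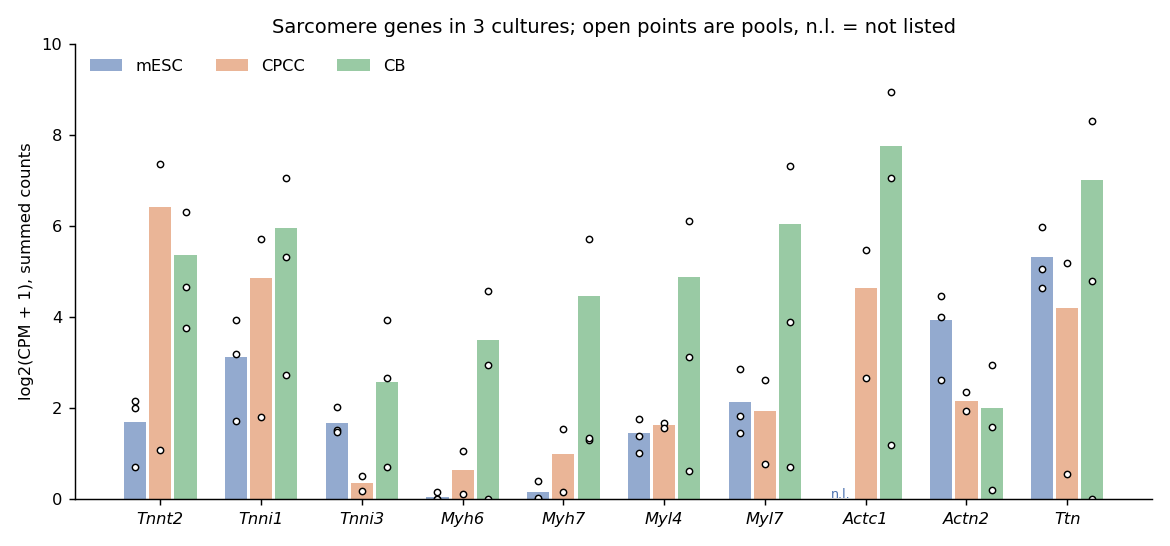
Level of each member as log2(CPM + 1) of the summed counts (y axis) in mESC, CPCC and CB (bars), with 1 open point per pool. The CB pools lie far apart for most members, and Actn2 is higher in mESC than in CB, and Actc1 has no bar in mESC, where it is not listed.

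The counts of CB sat in very few cells. The cell with the most counts of the 10 genes held 61.9% of all their counts in CB, the 9 highest cells 92.7%, and 7 cells were enough for 90% of them. In CPCC the highest cell held 20.4% and 28 cells were needed, and in mESC 5.51% and 116 cells. A single CB cell held 84.5% of the Ttn counts, 69.3% of Myh7, 69.0% of Myl7, 60.8% of Actc1, 57.9% of Myl4 and 56.2% of Actn2. For these 6 members 1 cell thus outweighed all other CB cells together, which was the case for 7.54% of all CB genes at 1 CPM or more. In CPCC it was the case for 2 members, Myl7 (53.6%) and Myh7 (71.0%, at 0.975 CPM), against 3.67% of genes at 1 CPM or more, and in mESC for Myh6 and Myh7, both under 1 CPM, against 0.931%. In CB, Myh6 and Tnni3 lay just under this level, with 49.8% and 49.7%. The troponins Tnnt2 and Tnni1 were spread over more cells, with 42.0% and 27.6% in the highest cell. Without each gene's highest cell, CB held 19.9 CPM of Ttn, 20.2 CPM of Myl7, 85.3 CPM of Actc1 and 6.51 CPM of Myh7. Ttn was then below its level in mESC without its highest cell, 36.6 CPM.

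**Figure D2:**
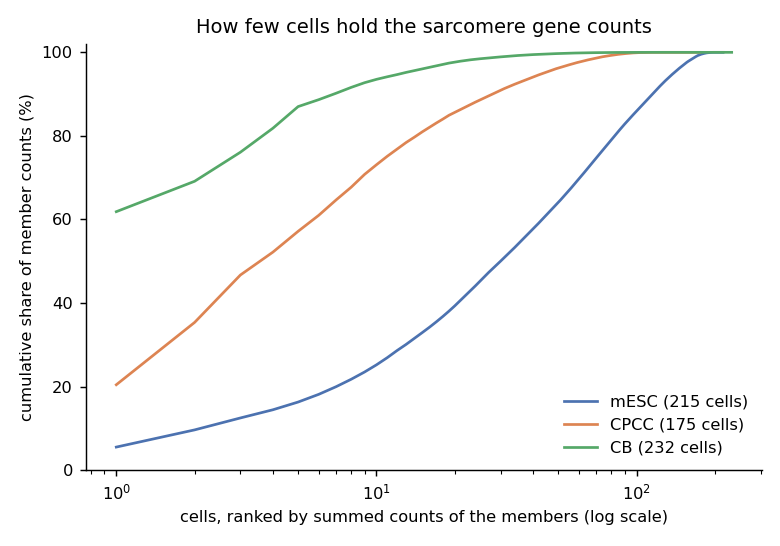
Cumulative share of the summed counts of the members (y axis, %) over cells ranked from most to fewest counts (x axis, log scale), 1 line per culture. The CB line starts at 61.9%, the CPCC line at 20.4% and the mESC line at 5.51%.

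Most CB cells held none of the genes at an appreciable count. At 10 or more counts, 163 of 232 CB cells (70.3%) held no member, against 84 of 175 CPCC cells (48%) and 40 of 215 mESC cells (18.6%). At that count, 5 or more members were found together in 8 CB cells (3.45%, interval 1.5003 to 6.68%), 4 mESC cells (1.86%, 0.509 to 4.69%) and 0 of 175 CPCC cells, which allows a share of up to 1.71% (3 of 175 cells). The intervals of CB and mESC overlapped. At equal depth they were 5 of 210 CB cells and 1 of 193 mESC cells. Further, 5 or more members at 100 or more counts were found in 5 CB cells (2.16%, 0.703 to 4.96%) and in no mESC cell, which allows up to 1.40% (3 of 215 cells), and 8 or more at 10 or more counts in 5 CB cells and in no cell of the other cultures. At 10 or more counts no mESC cell held more than 6 members and no CPCC cell more than 4.

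The 8 CB cells held 89.4% of the counts of the 10 genes in CB. Of them 7 came from pool 2 and 1 from pool 1, and pool 3 had none. The median total was 1750784 counts in pool 2, 804581 in pool 1 and 1596814 in pool 3. Their totals ran from 1018982 to 4284771 counts, and that of the CB median cell was 1397869. No doublet caller was run, and the tables do not mark the chambers that held several cells. Numbered by their summed member counts, cell 1 held all 10 members, with 18389 CPM of Actc1, 15085 CPM of Ttn, 6267 CPM of Myl7, 2372 CPM of Tnnt2, 2353 CPM of Tnni1, 2285 CPM of Myl4 and 2045 CPM of Myh7. Of its 2417422 counts 120798 came from the members, a larger part than in the other 7 cells, where it was at most 0.776%. Cell 4, from pool 1, was the other cell with all 10. It held 3169 CPM of Actc1, 918 CPM of Ttn, 573 CPM of Tnni1 and 479 CPM of Tnni3. Cell 2 held 9 members and lacked Tnni3, and cells 5 and 6 held 8 each.

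Within these cells, Tnnt2, Tnni1 and Myl4 were at 10 or more counts in all 8, Myl7 and Ttn in 7, Actc1 in 6, Myh6 and Myh7 in 5, Actn2 in 4 and Tnni3 in 2. All 8 belong to the group by a count of these same genes, so this is a description. The isoforms were mixed unevenly. Isoform shares were taken from counts per kb of coding length. Of both heavy chains together, Myh6 made up 25.7% in cell 1, 7.41% in cell 2 and 13.5% in cell 5. It made up 84.4% in cell 4 and 96.1% in cell 6. Of both troponin I genes together, Tnni3 made up 42.6% in cell 4 and 7.87% in cell 1. The other 6 cells had no count of Tnni3. The heavy chain shares rest on the uncertain split of reads between Myh6 and Myh7. By their counts cells 1 and 4 held both forms that prevail in the adult mouse heart. Cell 1 had more Myh6 in CPM (709 against 234), and cell 4, the only one of the 8 from pool 1, had more Tnni3 (479 against 227), though less than its own Tnni1. Cell 6 had mostly Myh6 but no Tnni3. Cell 3 stood apart with 5 members, 2321 CPM of Actc1 and no count of Myh6, Myh7, Actn2 or Ttn.

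Per kb of coding length, cell 1 held 16259 CPM of Actc1, 11937 of Myl7, 4194 of Tnni1, 3946 of Myl4, 2618 of Tnnt2, 358 of Tnni3, 352 of Myh7, 143 of Ttn, 122 of Myh6 and 88.5 of Actn2. Actc1 and Myl7 thus led, and the heavy chains, Ttn and Actn2 came last. The median over the 8 cells kept Actc1 first with 1497 CPM per kb, followed by Tnni1 with 1089 and Myl7 with 556.

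**Figure D3:**
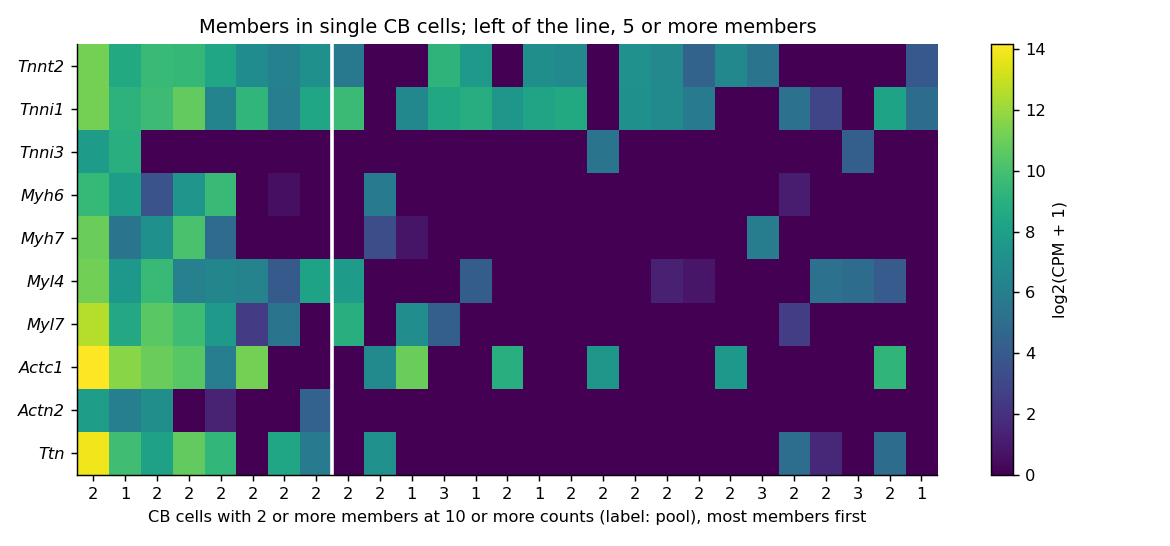
Level of each member as log2(CPM + 1) (colour) in the 27 CB cells with 2 or more members at 10 or more counts, 1 column per cell, labelled by pool. Left of the white line are the 8 cells with 5 or more members, 7 of them from pool 2. To its right Tnnt2 and Tnni1 are the members found most often.

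The other 224 CB cells differed by gene. They held 21 cells with 10 or more counts of Tnnt2 and 20 with Tnni1, but 10 with Actc1, 9 with Myl4, 7 each with Tnni3 and Myl7, 6 with Myh7, 5 with Ttn, and 1 each with Myh6 and Actn2. Their summed levels were 20.2 CPM of Tnni1, 21.4 CPM of Actc1 and 10.7 CPM of Tnnt2, and 0.494 CPM of Myh6 and 0.0838 CPM of Actn2. Of the CB counts, 98.4% of Ttn and 97.4% of Actn2 lay in the 8 cells, against 74.7% of Tnnt2 and 68.5% of Tnni1, the lowest shares of the 10. The thin filament genes did not share this, since Actc1 had 90.6% and Tnni3 82.3%. The 8 cells were picked by counts of the same genes, so high shares were built in.

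Pairs of members were counted in the same cells. Of the 29 CB cells with Tnnt2 at 10 or more counts, 17 (58.6%) held Tnni1, which 12.1% of all CB cells did. Of the 6 cells with Myh6, 5 held Tnnt2, 5 Myl7 and 6 each Actc1 and Ttn. Of the 9 cells with Tnni3, 2 held Tnnt2 (22.2%) and 3 held Actc1 (33.3%). In CPCC, 13 of 23 cells with Tnnt2 held Tnni1 (56.5%, against 11.4% of all cells), but 3 held Ttn (13.0%, against 24.6%). Of the 10 CPCC cells with Myl7, 5 held Ttn (50%) and 4 held Myl4 (40%, against 7.43% of all cells), and of the 10 with Actc1, 4 held Tnnt2 (40%, against 13.1%). In mESC, 11 of 19 cells with Tnnt2 held Tnni1 (57.9%, against 30.7% of all cells), and of 16 cells with Myl4, 8 held Myl7 (50%, against 16.7%) and 9 held Actn2 (56.3%, against 34.4%). Most pairs with Ttn lay nearer to the share of all cells: of 118 cells with Ttn, 33.1% held Actn2 and 15.3% Myl7, against 34.4% and 16.7%, while 39.0% held Tnni1, against 30.7%. Cells with more counts in all pass the limit more often for any gene, and that part was not tested.

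**Figure D4:**
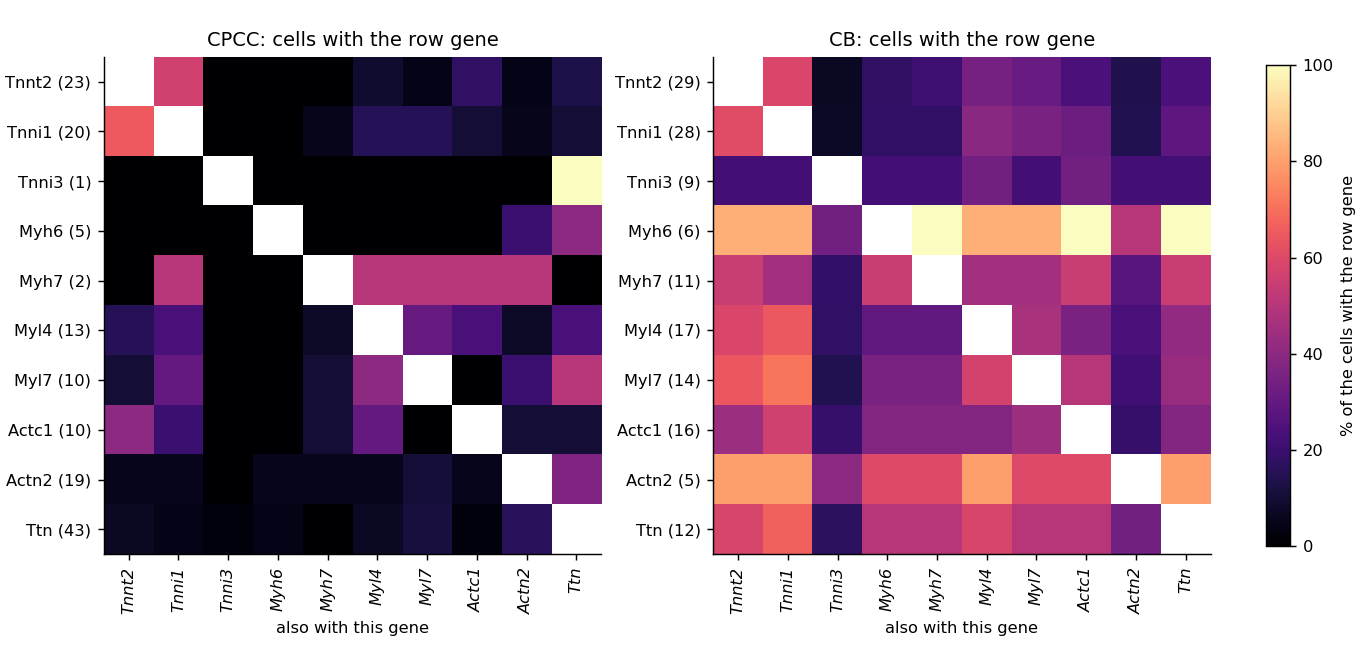
Share of the cells with the row gene at 10 or more counts (number of cells in parentheses) that also held the column gene, in CPCC (left) and CB (right), colour in %. In CPCC, 56.5% of the cells with Tnnt2 held Tnni1, 50% of those with Myl7 held Ttn, and 40% of those with Actc1 held Tnnt2, and in CB the rows of Myh6 and Actn2 hold high shares, with few cells each.

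In CPCC, Tnnt2, Actc1 and Ttn reached 100 counts mostly in different cells, while most cells with Tnni1 were among those with Tnnt2. These groups of cells were formed after the data were seen, so their values are descriptions. Tnnt2 reached 100 counts in 12 cells, all in pool 2, and Tnni1 in 9 cells, 8 of them among the same 12. Actc1 reached it in 7 cells, 5 in pool 1, and shared 1 cell with Tnnt2. Ttn reached it in 19 cells, all in pool 1, and shared none with the other 3 genes. The 12 cells with Tnnt2 had a median total of 2358290 counts, against 1046627 in the other cells of pool 2, and the part of depth in the groups was not tested. Since the groups follow the pools, each was set against the other cells of its own pool.

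The 12 CPCC cells with Tnnt2 held a median of 606 CPM of it and 223 CPM of Tnni1. Beside them the median level of Acta2 was 4197 CPM, against 40.8 CPM in the other 84 cells of pool 2, and that of Tagln, another smooth muscle marker, 1393 against 203 CPM. Col3a1, a fibrillar collagen of connective tissue cells, had a median of 334 against 0 CPM. The cardiac transcription factor Tbx20 was at 10 or more counts in 9 of the 12 and in 11 of the other 84 cells, and Gata4 in 6 and in 1. Nkx2-5 and Tnnc1, the calcium-binding troponin of heart muscle, were at 10 or more counts in none of the 12, and in 5 and 8 of the others. Tnni3, Myh6, Myh7, Myl4, Myl7 and Ttn were below 10 counts in all 12. Of the 4 cardiomyocyte markers that are not members, Myl2, Myl3, Ryr2 and Nppa, none had a count in these cells. The smooth muscle list (5 genes, Myh11 at 0) summed to between 4.25 and 51633 CPM, with a median of 5300 CPM, against 278 CPM in the other 84 cells, and the fibroblast list (10 genes, none at 0) to a median of 3557 against 253 CPM. The endothelial list (10 genes, none at 0) had a median of 134 against 30.8 CPM and reached 6029 CPM. The cycling list had a median of 326 against 1682 CPM, and the blood and macrophage list one of 4.24 against 122 CPM, with 39682 CPM in the highest of the 12. The part of these other lists in the levels of Tnnt2 and Tnni1 was not tested.

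The 5 CPCC cells of pool 1 with Actc1 had a median of 605 CPM of it. They held Acta2 at a median of 8747 CPM and Acta1, the skeletal actin, at 1374 CPM, against 1.66 and 0.175 CPM in the other 74 cells of the pool. These 74 cells had a median pluripotent sum of 6661 CPM, against 42.6 CPM in the 5, and a median of 161 against 0 CPM of Pou5f1. In the 5 cells the fibroblast list had a median of 1068 CPM, against 112 CPM in the 74. The cycling list had one of 688 against 3303 CPM. As given above, most CPCC cells with 1000 CPM or more of Acta2 had no count of Actc1. The epithelial keratins Krt8 and Krt18 had medians of 2589 and 2511 CPM, against 0.767 and 3.28 CPM, and Tpm1, a tropomyosin of the thin filament, 5888 against 284 CPM. Tnnt2 had a median of 5.86 against 0 CPM, and was at 10 or more counts in 3 of the 5 and in 2 of the other 74 cells. The medians of the other 8 members were 0 in these 5 cells. Their Actc1 counts came with high counts of 3 actins of near-identical sequence, and whether reads were assigned across these genes was not tested.

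The 19 cells with Ttn had a median of 90.4 CPM of it, and held the pluripotency factors Nanog at a median of 266 CPM and Pou5f1 at 186 CPM, against 84.5 and 143 CPM in the other 60 cells of pool 1. Pou5f1 and Sox2 were at 10 or more counts in all 19 and in 42 of the other 60. Their Acta2 median was 0.956 against 2.46 CPM. The pluripotent list (10 genes, none at 0) summed to a median of 8346 CPM, against 5759 CPM in the other 60, and within the 322 to 22832 CPM of mESC cells below 100 counts of Ttn. The cells with Ttn also had more counts in all than the other 60, with a median of 1960865 against 1573676. In mESC the 45 cells with 100 or more counts of Ttn had a pluripotent sum with a median of 10092 CPM, close to 10059 CPM in the other cells, and no count of Myl2 or Myl3, and their median total was 2015200 against 1335483 counts.

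**Figure D5:**
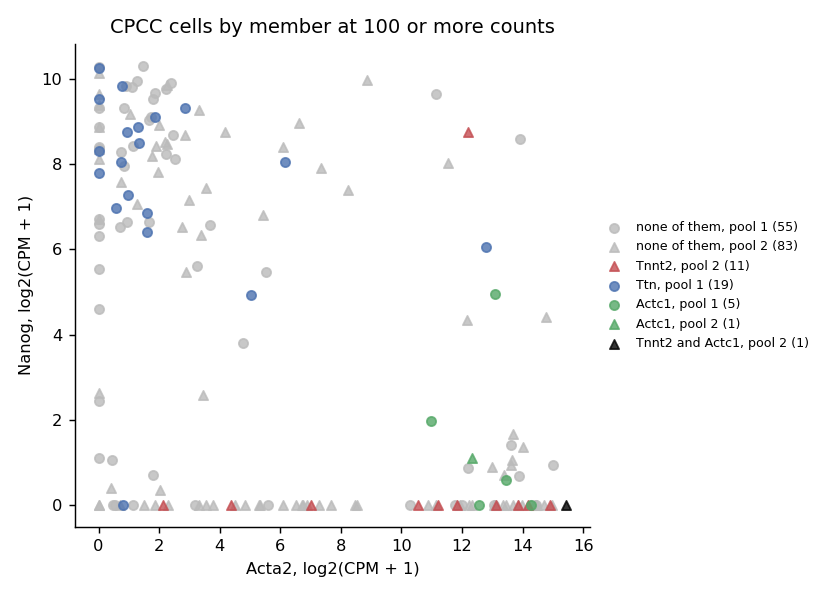
The 175 CPCC cells by Acta2 (x axis) and Nanog (y axis), both log2(CPM + 1), coloured by the member that reached 100 counts, with pool as shape. Cells with Ttn lie mostly at high Nanog and low Acta2, and cells with Tnnt2 or Actc1 mostly at high Acta2 without Nanog, and 138 of the 175 cells hold none of the 3.

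Other genes of the sarcomere were compared between the 8 CB cells and the other 224. This contrast was defined by the members, so it is a description, and 11.6% of all genes were higher in the 8 cells by 1 or more on the log2 scale (5.5% when 10 or more counts in at least 3 of the 8 were asked as well). The median over all genes was -0.33. In the list of the thick filament and M band, 6 of 7 genes tested were higher and 4 of them in 3 or more cells, with a median of 4.75, or 2.69 without cell 1. Myl3, the ventricular essential light chain, was in 7 of the 8 cells and had 723 CPM there against 0.488 CPM in the others. Cell 1 held 4245 CPM of Myl3, and without cell 1 the level was 104 CPM. Mybpc3, the cardiac myosin-binding protein C, had 99.7 against 0.429 CPM. Myl2, the ventricular regulatory light chain, was held by cells 1 and 4 with 126 and 1491 CPM and by none of the other 6.

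In the thin filament list 4 of 5 genes were higher, with a median of 1.41, or 1.12 without cell 1. Tnnc1, the troponin C that completes the complex with Tnnt2 and Tnni1, was in 3 of the 8 cells, with 3088 CPM in cell 1, 877 CPM in cell 2 and 1009 CPM in cell 4. Cells 3 and 5 to 8 had no count of Tnnc1, although all held Tnnt2 and Tnni1. All 14 genes of the Z disc list were higher, 9 of them in 3 or more cells, with a median of 3.47, or 2.93 without cell 1. Most of the remaining Z disc genes were in 1 of the 8 cells and passed the limit of 1 CPM only through it. They could thus only come out higher. Csrp3, a muscle LIM protein, was in 5 cells and had no count in the other 224. Nebl, an anchor of thin filaments, had 338 against 16.0 CPM.

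Among calcium handling genes 8 of 10 were higher, but 2 of them in 3 or more cells, with a median of 2.59, and the remaining 2 were lower. The genes in 3 or more cells were Slc8a1, the sodium-calcium exchanger, in 6 cells, and Atp2a2, the calcium pump of the sarcoplasmic reticulum, in 7. Pln, which restrains that pump, was held by cells 1 and 4 with 2271 and 570 CPM. Ryr2, the calcium release channel, had 678 CPM in cell 1, 137 CPM in cell 5 and at most 0.899 CPM in the other 6. In the list of natriuretic peptides and metabolism 4 of 6 were higher, but 2 of them in 3 or more cells. The median of the list was 4.04, or 2.59 without cell 1. Nppa, the atrial natriuretic peptide, had 381 CPM in cell 1 and no count in the other 7. Of the skeletal isoforms 3 of 7 were higher and 2 lower, 1 of the 3 in at least 3 cells, with a median of 0.51, or -0.03 without cell 1.

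Of the 13 cardiac transcription factors 9 were higher and 8 of these in 3 or more cells, with a median of 2.24, or 1.74 without cell 1. Tbx20 had 147 against 10.6 CPM and Hand2 75.7 against 13.9 CPM. Nkx2-5 was highest in cell 1 with 256 CPM and had no count in cells 3, 6 and 8. Markers of other cells were given by list. None of the 10 fibroblast genes was higher and 9 were lower, with a median of -3.77, and none of the 10 epithelial and mesothelial genes was higher, with Epcam, Cdh1 and Upk3b at 0 in all 8. Cell 3, which had the most counts of the 8, nevertheless held 1060 CPM of Col3a1, 747 CPM of Postn, 479 CPM of Col1a1, 619 CPM of Krt8 and 471 CPM of Krt19, and cell 8 held 458 CPM of Krt18. None of the 10 endothelial genes was higher, although cell 6 held all 10, from 15.3 CPM of Tie1 to 1553 CPM of Ramp2, with 774 CPM of Cdh5, and whether the chambers of cells 3, 6 and 8 held more than 1 cell was not tested. The 5 listed blood and macrophage genes had no count. Of the 5 smooth muscle genes 3 were higher and 2 lower, with 4210 against 663 CPM of Acta2, from 1.72 CPM in cell 4 to 9192 CPM in cell 3, and with 14.3 against 109.5 CPM of Actg2, while Myh11 was at 0. Cell cycle genes had a median of 0.09, with 2 of 8 higher and 1 lower.

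The genes most like the members were sought across the 223 CB cells with at least 10000 counts, by Pearson's correlation of log2(CPM + 1) with the mean of the 10 members, over 15845 genes with 10 or more counts in at least 5 cells. The cells share a culture and its pools, most hold 0 for most members, and no p-value is attached. Csrp3 (r = 0.83), Myl3 (0.83), Mybpc3 (0.78), Trim55 (0.76), Cox6a2 (0.72) and Sh3bgr (0.63) led, followed by Smyd1, Ldb3, Popdc2, Mylk3, Tnnc1, Apobec2, Nkx2-5, Pln and Myom1 with 0.61 to 0.54. Csrp3 and Trim55 had 10 or more counts in 5 cells, all among the 8 cells picked for the members. Myl3, Mybpc3, Cox6a2, Smyd1, Apobec2 and Pln also needed some of these 8 cells to pass the limit. The places of these genes were thus partly built in. Without cell 1 the first 2 kept their places with 0.76 each, and Pln dropped by most places, from rank 14 to 31. Without all 8 cells r ran from 0.02 for Smyd1 to 0.45 for Popdc2, with 0.34 for Cox6a2, 0.33 for Myl3 and Mylk3 and 0.18 for Mybpc3, and Csrp3 had no value. Since the 8 cells were picked for counts of the members, a fall was built in. Among the members, the correlation with the mean of the other 9 was highest for Myl7 (0.79) and Myh6 (0.79) and lowest for Tnni3 (0.40).

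Genes next to the members had levels of their own. Ngdn, beside Myh7, had 80.3 CPM in mESC and 45.1 CPM in CB, and Pold2, beside Myl7, 132 and 43.4 CPM, so both were lower in CB than in mESC. Ccdc141, next to Ttn, had 6.76, 6.03 and 21.5 CPM in mESC, CPCC and CB. Lad1, which lies between Tnni1 and Tnnt2, had 5.54 CPM in mESC, against 13.7 CPM in CPCC and 44.7 CPM in CB, which was the order of Tnni1 but not of Tnnt2. Cdc27, 43 bases from Myl4, had 48.1, 73.8 and 74.2 CPM.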

How the data were processed

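Single cells were captured on Fluidigm C1 chips and full-length cDNA was made with SMART-Seq chemistry. Per the labels and the study's methods, the authors aligned reads with STAR 2.7 to mm10 (GRCm38). The authors deposited 1 table per culture with a column per cell. For mESC and CB the authors deposited estimated counts, not scaled, as 28.9% and 30.8% of their nonzero values were fractional. For CPCC the authors deposited whole read counts. The counting model and use of strand are not given in the sources used here. Each table lists only genes with a highest value of at least 1, and a gene not listed has no value. In CPCC, 208 rows with no gene, 23 date-like symbols (together 0.139% of counts) and 2 columns not mapped to a sample were left out. Tables were linked to samples by culture name.

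Counts were summed and scaled to CPM. A called gene differs by 1 or more in log2(CPM + 1), over genes listed in both tables with 1 CPM or more in either. Shares carry exact Clopper-Pearson and counts exact Poisson intervals (95%), and for a share of 0 the limit given is 3 cells of the total, which is below the exact bound. No molecular identifiers were used, so reads may stem from one molecule. With 1 sample per group no test was made. Values were rounded for thinning (seeded, to 430000 counts, leaving out 22 mESC, 18 CPCC and 22 CB cells), edgeR 4.0.16 and DESeq2 1.42.0 factors and intervals. Gene positions come from a GENCODE annotation of GRCm38, which may differ from the annotation behind the counts. The log2 ratio step was run on simulated summed counts of 19855 genes for CB against mESC, and 100% of the planted changes were recovered. The planted genes lay above the low levels of many members, and no counts were held by few cells. The recovery thus does not carry over to the members. Python 3.11.15, numpy 2.4.6, pandas 2.3.3, scipy 1.17.1 and R 4.3.3 were used.

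The members and lists were chosen with earlier results of these data known. All 10 members are named. From each further list up to 5 genes with the most counts in the 8 CB cells could be named, with the 15 genes most like the members, muscle actins and neighbours. Genes named outside these rules (in the CPCC groups, and Epcam, Cdh1, Upk3b, Cdh5, Tie1, Ramp2) were chosen after values were seen. So were the groups themselves, the promoter sequences shown and the recounts of called members. The alternatives were other scalings, pseudocounts, cell filters, thresholds and pools, and members or cells left out.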

Additional observations from a re-analysis of the deposited data

How the results depend on the processing

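No paired analysis was possible because each group is 1 sample and pools carry no label that pairs them. With 1 sample per group no difference has a replicate check, and the members' levels in CB rest largely on 8 cells, and those of 6 members mostly on 1. Without the cells with 5 or more members at 10 or more counts, the median log2 ratio was 0.53 for CB against mESC and turned to -0.10 for CB against CPCC. Leaving out 1 pool at a time gave 0.85 to 4.18 for CB against mESC, 0.31 to 3.59 for CB against CPCC, each lowest without CB pool 2, and -0.14 to 0.42 for CPCC against mESC. Without the highest cell of each sample the first 2 were 2.27 and 1.78. Both kinds of cells were picked by counts of the members, so a fall without them was built in. Why they decide the medians was not tested beyond leaving them out.

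Scaling moved the same 2 medians to 3.27 and 2.67 (TMM), and 3.23 and 2.65 (DESeq2). A pseudocount of 0.1 CPM gave 3.95 and 3.44, one of 10 CPM 1.62 and 1.22, and equal weights of all cells 3.09 and 2.33. CPCC against mESC was 0.51 with equal weights and -0.19 for members at 1 CPM or more. Without Ttn and Actn2, chosen after seeing the data, CB against CPCC was 2.99 and CPCC against mESC 0.59.

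The share of mESC cells with 5 or more members at 10 or more counts, 1.86%, became 21.9% for 3 or more members, 0 for 8 or more, 6.98% at 1 or more counts, 0 at 100 or more, and 0.599 to 3.20% without 1 pool. The CPCC share of 0 became 5.71% for 3 or more members and 4.57% at 1 or more counts, and stayed 0 without either pool. The CB share of 3.45% was 0.649% without pool 2 and up to 5.44% without another.

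The share of the highest cell was 6.62% (mESC), 12.1% (CPCC) and 54.4% (CB) by CPM of each cell. Without Ttn it was 4.38%, 22.9% and 55.4%, per kb 3.72%, 23.4% and 53.7%, and without Actc1 23.9% in CPCC and 62.5% in CB. For single genes, 127 of 135 alternative CPM values and 32 of 87 alternative shares of cells left the counting interval of the main value, and 8 of 15 likeness values moved by 0.1 or more.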
